A study of Mus musculus with 12 samples.

Results

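Imprinted growth genes are genes expressed mainly from the maternal or the paternal copy, many of which act on the size of the embryo and on the number of cells in its tissues. The 10 members described here are H19, Cdkn1c, Dlk1, Meg3, Rian, Mest, Peg3, Plagl1, Grb10 and Ndn, out of 36512 genes in the deposited count table. They were chosen by name, with earlier results of these data known. The symbol column of the table named 9 of them, and Rian, which has no symbol there, was matched by its Ensembl identifier through the GENCODE M21 annotation.

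The cells came from the aorta and the fat around it, taken on postnatal day 3 from CD-1 mouse pups of both sexes mixed, and no label gives an added treatment or a genetic change. Flow cytometry gave 4 populations, named in the labels as progenitor cells, intermediate cells, preadipocytes and smooth muscle cells, with 3 libraries each. The sources used here do not give the surface markers by which they were sorted. Poly(A) RNA was amplified with a low-input full-length chemistry. The labels do not say whether replicates came from separate pups or sorts, so the p-values measure the spread between these libraries, which may be technical.

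Imprinting is set by DNA methylation laid down in the egg or the sperm, and imprinted genes lie in clusters that share a control region. H19 and Igf2, and Dlk1 and Meg3, are the textbook pairs in which a non-coding RNA and a growth-promoting gene are read from opposite parental copies. Several of the members belong to a set of genes that are high in many growing fetal organs and are turned down after birth. The counts carry no information on alleles, so parental origin was not measured here and is given as background only.

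Libraries held 11701825 to 17123109 counts, and 21285 genes had enough counts to be tested. All 10 members were tested, with 374 to 42029 counts per member and library. Levels are given as CPM, the counts per gene scaled to a common library size, after TMM scaling, which corrects library size for a few genes taking many counts. The members' counts were far from the limit that a count of 0 allows, which was 0.175 to 0.256 CPM. Marker genes followed the population names: 6 progenitor markers summed to 3882 to 4414 CPM in progenitor and to at most 913 CPM in other libraries, 6 fat markers to 3076 to 4980 CPM in preadipocyte and at most 412 CPM elsewhere, and 6 smooth muscle markers to 6835 to 7483 CPM in smooth muscle and at most 1185 CPM elsewhere. Other cell types also left marks. The 6 mesothelial markers summed to 1110 to 1500 CPM in smooth muscle and at most 194 CPM in other libraries, with none of the 6 at 0 in all libraries. The 8 Schwann and neuronal markers summed to 545.5 to 735 CPM in smooth muscle and at most 103 CPM elsewhere. Red blood cell markers reached 16920 CPM in preadipocyte replicate 3 against 1007 and 1266 CPM in replicates 1 and 2. The part of these other cells in the results on the members was not tested. In bulk RNA of this kind, fewer cells that express a gene and less RNA per cell cannot be told apart.

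The members lie on 5 chromosomes of mm10. H19, a non-coding RNA, is at chr7:142575529-142578143 and Cdkn1c at chr7:143458339-143461050, both on the minus strand with 880.2 kb between them. Dlk1 at chr12:109452823-109463336, Meg3 at chr12:109541001-109571726 and Rian at chr12:109603940-109661716 follow each other on the plus strand, with gaps of 77.7 kb and 32.2 kb. Peg3 is at chr7:6703892-6730431 on the minus strand and Ndn at chr7:62346569-62350262 on the plus strand, each far from the other members of that chromosome. Mest is at chr6:30723547-30748465 and Plagl1 at chr10:13060504-13131694, both on the plus strand, and Grb10 is at chr11:11930508-12038683 on the minus strand. Exons of H19, Meg3, Mest, Cdkn1c and Plagl1 overlap exons of genes on the opposite strand. For Mest this is the 3′ neighbour Copg2, with 912 shared exon bases, and for Cdkn1c the predicted gene Gm44732, with 625. The sources used here do not give the strand used in counting, so reads over these bases cannot be assigned with certainty.

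The promoters of Dlk1, Meg3 and Peg3 are printed because Dlk1 and Meg3 share a cluster yet differed in pattern between the populations, and because Peg3 had the most counts of the members. The sequences are RefSeq GRCm38.p6, 5′ to 3′ on the gene's strand, and cover the 250 bases before the annotated start: chr12:109452573-109452822 for Dlk1 and chr12:109540746-109540995 for Meg3 on the plus strand, and chr7:6730420-6730669 for Peg3 on the minus strand. Capitals mark matches, on either strand, to TGACGTCA (the cyclic AMP response element), GGGGCCCC, TATAAA (the TATA box) and CCAAT, motifs chosen after the sequences had been read.
Dlk1: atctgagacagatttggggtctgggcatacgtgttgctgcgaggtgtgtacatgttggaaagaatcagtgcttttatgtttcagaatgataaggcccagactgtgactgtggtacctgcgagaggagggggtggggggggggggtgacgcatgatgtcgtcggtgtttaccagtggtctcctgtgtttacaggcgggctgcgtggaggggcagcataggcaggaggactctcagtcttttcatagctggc
Meg3: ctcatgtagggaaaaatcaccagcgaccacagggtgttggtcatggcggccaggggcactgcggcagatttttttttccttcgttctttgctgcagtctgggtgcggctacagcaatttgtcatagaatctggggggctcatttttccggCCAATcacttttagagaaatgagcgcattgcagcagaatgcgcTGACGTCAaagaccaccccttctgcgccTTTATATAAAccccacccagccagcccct
Peg3: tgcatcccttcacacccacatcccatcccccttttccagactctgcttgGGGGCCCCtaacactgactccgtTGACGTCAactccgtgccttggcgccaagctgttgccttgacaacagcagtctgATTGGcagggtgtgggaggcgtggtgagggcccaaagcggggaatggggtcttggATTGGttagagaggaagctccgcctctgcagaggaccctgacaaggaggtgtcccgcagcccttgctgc
Windows of 300 bases, reaching 50 bases past the start, were found for 8 members, with 12 windows in all. TGACGTCA was in the window of Meg3, 57 bases before the start, and in that of Peg3, 178 bases before it. Of 32851 such windows over all genes, 1.79% held TGACGTCA, 1.08% held GGGGCCCC, 13.62% held TATAAA and 37.41% held CCAAT. The run of capitals near the start of Meg3 holds 2 overlapping matches to TATAAA, on opposite strands, and the window of Dlk1 held none of the 4 motifs. A match describes letters only, and binding was not measured.

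H19 and Mest also carry microRNAs, whose mature forms were not measured by these libraries. They are printed because the host transcripts are the members with the 2nd and the 3rd widest range between populations. The RefSeq mature sequences are given with the seed (bases 2 to 8) in capitals.
miR-675-5p, in an exon of H19: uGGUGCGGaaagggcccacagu
miR-675-3p, in an exon of H19: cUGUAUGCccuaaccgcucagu
miR-335-5p, within Mest but outside its exons: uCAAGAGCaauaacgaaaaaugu
miR-335-3p, within Mest but outside its exons: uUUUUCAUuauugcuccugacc
No seed is shared among these 4 sequences.

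In newborn vessel cells 9 of the 10 members had their highest mean level in progenitor libraries, and Grb10 had its highest in intermediate libraries. Of all genes tested, 18.4% were highest in progenitor libraries. By edgeR's quasi-likelihood F test with Benjamini-Hochberg adjustment, all 10 members differed among the 4 populations at an adjusted p under 0.05, where the background share of genes called was 79.8%. Reads on the 10 members made up 0.922% to 1.01% of all counts in progenitor libraries. The share was 0.563% to 0.580% in intermediate libraries, 0.242% to 0.360% in the preadipocyte and 0.199% to 0.241% in the smooth muscle libraries. The populations did not overlap in this share, although the lowest preadipocyte and the highest smooth muscle library lay next to each other.

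**Figure D1:**
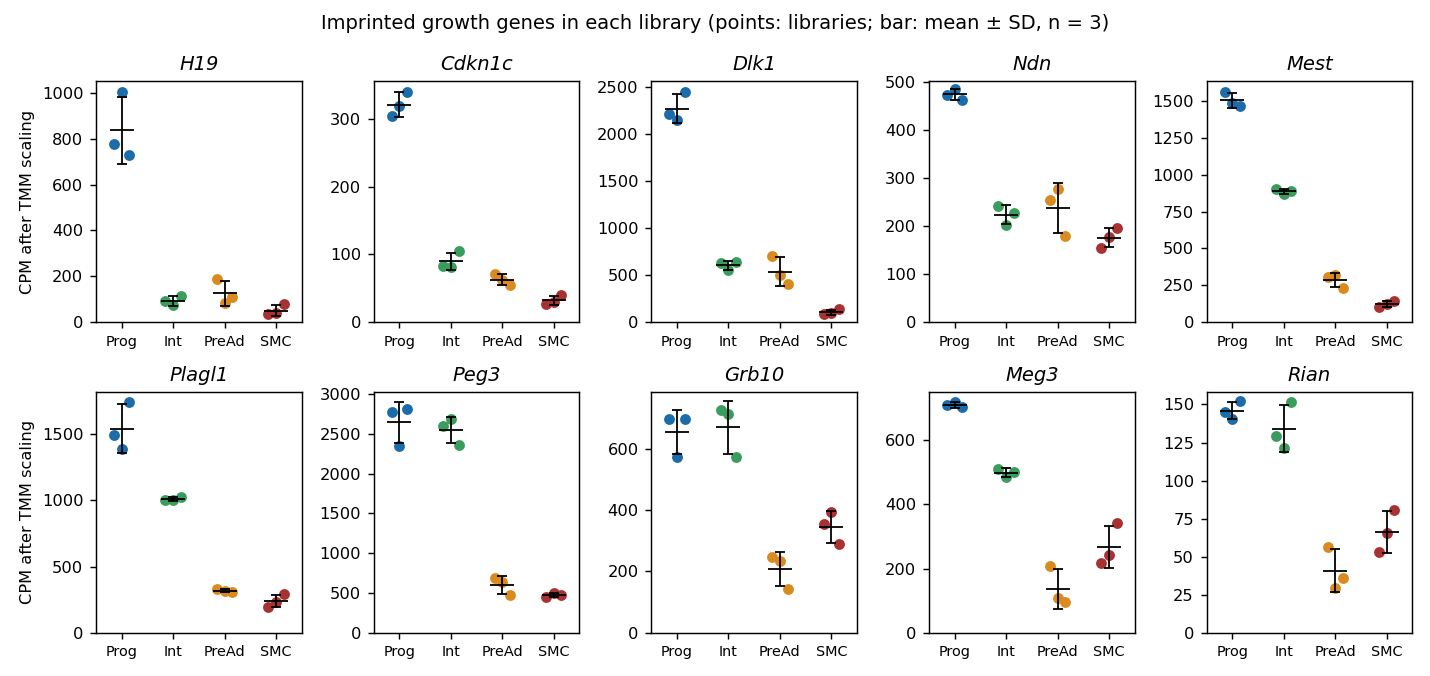
Level of each member in each of the 12 libraries (y axis, CPM after TMM scaling, starting at 0; points are libraries, the bar is the mean ± SD, n = 3) in progenitor (Prog), intermediate (Int), preadipocyte (PreAd) and smooth muscle (SMC) populations. The upper row, from H19 to Mest, and Plagl1 and Meg3 stand highest in progenitor libraries alone, while Peg3, Grb10 and Rian overlap between progenitor and intermediate libraries.

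Compared with progenitor libraries, all 10 members were lower in preadipocyte libraries, where 50.9% of all genes tested were called, 25.9% lower and 25.1% higher. Their median log2 fold change was -2.21, against 0.04 over all genes. All 10 were also lower in smooth muscle than in progenitor libraries, where 54.1% of all genes were called, 23.6% lower and 30.5% higher, with a median of -2.58 against 0.09. Both comparisons use the same progenitor libraries. In intermediate against progenitor libraries 6 members were lower, where 27.6% of all genes were called, 13.4% lower and 14.1% higher. H19, Dlk1, Cdkn1c, Ndn, Mest and Plagl1 were the 6, and Meg3, Peg3, Grb10 and Rian did not pass the test.

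Among the other populations, 7 members, all but H19, Dlk1 and Ndn, were lower in preadipocyte than in intermediate libraries, where 57.1% of all genes were called and 31.1% were called lower. In smooth muscle against intermediate libraries 8 members, all but H19 and Ndn, were lower, where 28.8% of all genes were called, 13.1% lower and 15.7% higher. In smooth muscle against preadipocyte libraries all 10 passed the test, where 66.6% of all genes did: 7 were lower, with a background of 25.9%, and Meg3, Grb10 and Rian were higher, with a background of 40.7%. Scaling by library size alone shifted the median over all genes' log2 fold changes by 0.39 in preadipocyte and 0.44 in smooth muscle against progenitor libraries, and the share of higher genes among all calls from 49.2% to 67.6% and from 56.4% to 82.8%. It shifted that median by 0.43 in preadipocyte and 0.49 in smooth muscle against intermediate libraries, with higher shares going from 45.6% to 64.7% and from 54.6% to 89.2%. The 10 of 10 members lower in preadipocyte and in smooth muscle than in progenitor libraries stayed at 10 in each of the 20 alternative settings run.

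**Figure D2:**
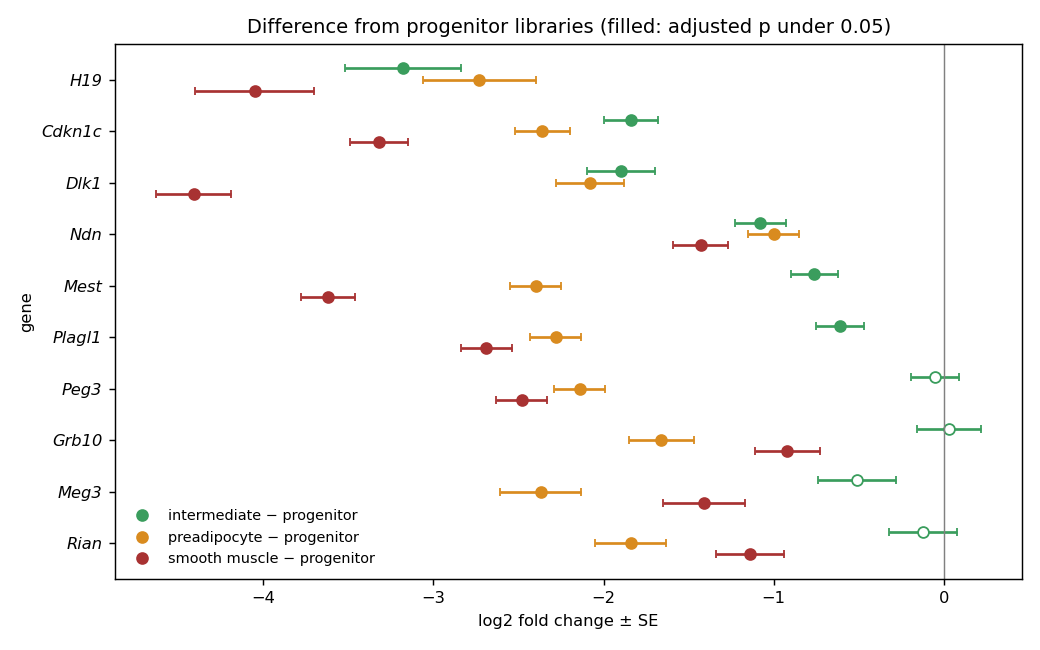
Log2 fold change ± SE of each member against progenitor libraries (x axis, edgeR; 3 libraries per population; filled points have an adjusted p under 0.05, open points do not). Points for preadipocyte and smooth muscle lie between -4.41 and -0.92, while the intermediate points of Peg3, Grb10, Meg3 and Rian are open.

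H19, a long non-coding RNA of the maternal copy that restrains growth, was lower than in progenitor libraries in every other population, and had the largest drop of the 10 members in intermediate and preadipocyte libraries. Its level was 776, 1003 and 730 CPM in the 3 progenitor libraries, 91.0, 72.8 and 113 CPM in intermediate, 187, 82.1 and 109 CPM in preadipocyte and 33.6, 37.9 and 79.6 CPM in smooth muscle libraries. The progenitor libraries stood clear of all others, and the intermediate and preadipocyte libraries overlapped. Against progenitor libraries the log2 fold change was -3.18 (SE 0.34) in intermediate, -2.73 (SE 0.33) in preadipocyte and -4.05 (SE 0.35) in smooth muscle libraries, with edgeR adjusted p of 6.22e-06, 4.22e-06 and 1.77e-07. Preadipocyte and intermediate libraries did not differ by this test (log2 fold change 0.45, SE 0.31, edgeR adjusted p = 0.228, 95% interval ± 0.61), though they did with library size alone (0.90, adjusted p = 0.029). Smooth muscle against intermediate libraries missed the threshold (log2 fold change -0.87, SE 0.32, edgeR adjusted p = 0.0509), with the highest smooth muscle library above the lowest intermediate library. It passed in 10 of the 20 alternatives, among them limma-voom (adjusted p = 0.00107), the fit to these populations alone (0.00699) and leaving out smooth muscle replicate 3, where it was -1.38 (edgeR adjusted p = 0.00298). Leaving out progenitor replicate 2, intermediate replicate 2 or any preadipocyte replicate also let it pass, with edgeR adjusted p from 0.0163 to 0.031.

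Igf2, the growth factor gene beside H19 that is read from the paternal copy, was highest where H19 was highest. It was at 13.7, 14.8 and 14.4 CPM in progenitor, 6.42, 5.87 and 8.54 CPM in intermediate, 5.62, 2.18 and 1.39 CPM in preadipocyte and 3.30, 2.99 and 4.73 CPM in smooth muscle libraries. Progenitor libraries were above all others, and preadipocyte and smooth muscle libraries overlapped. Against progenitor libraries Igf2 was lower in preadipocyte (log2 fold change -2.21, SE 0.37, edgeR adjusted p = 0.000108), smooth muscle (-1.96, SE 0.37, adjusted p = 0.000435) and intermediate libraries (-1.04, SE 0.35, adjusted p = 0.0397). The intermediate call was lost without progenitor replicate 1 (edgeR adjusted p = 0.0711) or 3 (0.0705), intermediate replicate 2 (0.0766) or smooth muscle replicate 1 (0.0524), and with at least 5 CPM in 3 libraries (0.067). A progenitor library held 50.7 to 67.9 counts on H19 for each count on Igf2. This ratio was 33.3 to 78.3 in preadipocyte, 12.4 to 14.2 in intermediate and 10.2 to 16.8 in smooth muscle libraries, so that intermediate and smooth muscle libraries lay apart from the other populations. Other imprinted genes near H19 and Cdkn1c went both ways. Cd81 (log2 fold change -1.24) and Osbpl5 (-2.32) were called lower in preadipocyte than in progenitor libraries, though Osbpl5 was highest in intermediate libraries. Nap1l4 was called higher in preadipocyte libraries (0.78), and Kcnq1ot1 did not pass the test there (-0.33, edgeR adjusted p = 0.158).

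Cdkn1c, which encodes the cyclin-dependent kinase inhibitor p57 and holds back cell division, was also highest in progenitor libraries. It stood at 305, 319 and 341 CPM in progenitor, 82.5, 82.0 and 105 CPM in intermediate, 71.0, 62.3 and 55.3 CPM in preadipocyte and 26.8, 30.2 and 39.9 CPM in smooth muscle libraries. No library of a population overlapped with any of another, in the order progenitor, intermediate, preadipocyte, smooth muscle. Against progenitor libraries it was lower by a log2 fold change of -1.84 (SE 0.16) in intermediate, -2.36 (SE 0.16) in preadipocyte and -3.32 (SE 0.17) in smooth muscle libraries, with edgeR adjusted p of 8.26e-07, 1.08e-08 and 5.53e-10. The step from intermediate to preadipocyte libraries was small (-0.51, SE 0.16, edgeR adjusted p = 0.0109). It did not pass when library size alone was used (-0.08, adjusted p = 0.674), when progenitor replicate 2 (adjusted p = 0.0565) or intermediate replicate 1 (0.0661) or 3 (0.177) was left out, or with no filter on low counts (0.158).

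Of 6 other tested genes named as cyclin-dependent kinase inhibitors, 4 were higher in preadipocyte than in progenitor libraries and the other 2 did not pass the test. This count was 2 without progenitor replicate 3. Of all genes tested, 25.1% were called higher in preadipocyte and 30.5% in smooth muscle than in progenitor libraries. Of the 6 genes named as inhibitors, 4 were higher and 1 was lower in smooth muscle than in progenitor libraries. These 5 became 3 without progenitor replicate 1 and 1 with no filter on low counts. They became 2 without progenitor replicate 2, any intermediate replicate or smooth muscle replicate 3. Cdkn2c, which encodes the inhibitor p18, was at 13.8 ± 0.636 CPM in progenitor and 61.1 ± 14.1 CPM in preadipocyte libraries (SD, n = 3; log2 fold change 2.14, SE 0.16, edgeR adjusted p = 2.13e-08). All 20 genes of a cell division list, such as Mki67 and Rrm2, were higher in preadipocyte than in progenitor libraries, with a median log2 fold change of 2.03. Their sum was 981 to 1164 CPM in progenitor, 1093 to 1283 CPM in intermediate, 3108 to 5651 CPM in preadipocyte and 1143 to 1249 CPM in smooth muscle libraries. Smooth muscle libraries had the lowest Cdkn1c level, beside a division sum near that of progenitor libraries, where Cdkn1c was highest. A link between Cdkn1c and division was not tested, nor was the part of other cell types in these values. Of the 20 genes, 5 were higher and 1 lower in smooth muscle than in progenitor libraries, and these 6 became 10 with library size alone, with no filter on low counts or without intermediate replicate 1.

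**Figure D3:**
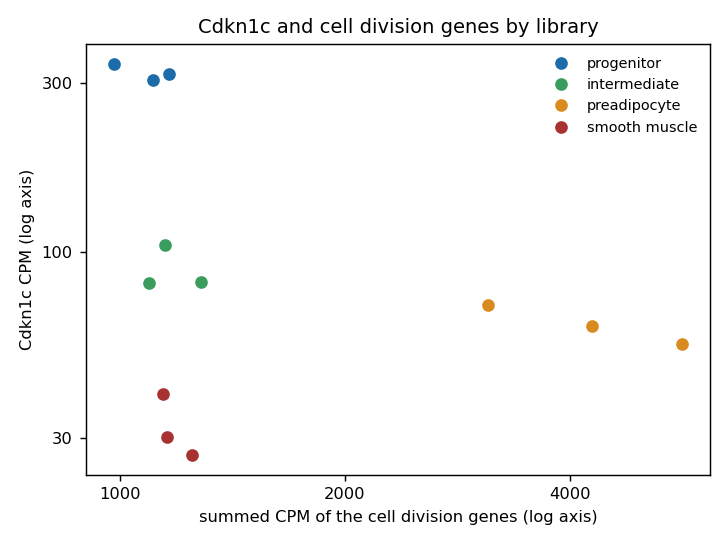
Cdkn1c level (y axis, CPM, log scale) against the summed level of 20 cell division genes (x axis, CPM, log scale) in each of the 12 libraries, coloured by population. The preadipocyte libraries lie at 3108 to 5651 CPM on the x axis, and the other 9 libraries lie at 981 to 1283 CPM while their Cdkn1c level runs from 26.8 to 341 CPM.

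The chromosome 12 cluster holds 3 members, of which Meg3 and Rian moved together while Dlk1 differed from them in pattern. Dlk1 encodes a transmembrane protein of the Notch ligand family that is released from the cell and is known as Pref-1 for its block on fat cell differentiation. Dlk1 was at 2212, 2156 and 2449 CPM in progenitor, 634, 552 and 635 CPM in intermediate, 707, 505 and 403 CPM in preadipocyte and 87.4, 96.0 and 138 CPM in smooth muscle libraries. It had the widest range of the 10 members, 21.2-fold between the progenitor and the smooth muscle mean. Progenitor libraries were highest and smooth muscle libraries lowest without overlap, and the intermediate libraries fell inside the preadipocyte range. The log2 fold change against progenitor libraries was -1.90 (SE 0.20) in intermediate, -2.08 (SE 0.20) in preadipocyte and -4.41 (SE 0.22) in smooth muscle libraries, with edgeR adjusted p of 5.88e-06, 4.09e-07 and 4.94e-10. Preadipocyte and intermediate libraries were not told apart (log2 fold change -0.17, SE 0.19, edgeR adjusted p = 0.46, 95% interval ± 0.37), and the sign turned with library size alone (0.26).

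Meg3, a long non-coding RNA read from the maternal copy and known for slowing growth, kept more of its level in smooth muscle libraries. Its level was 708, 718 and 701 CPM in progenitor, 511, 484 and 499.5 CPM in intermediate, 208, 108 and 95.7 CPM in preadipocyte and 218, 243 and 342 CPM in smooth muscle libraries. The 4 populations did not overlap, and preadipocyte libraries were lowest. Against progenitor libraries the log2 fold change was -2.37 (SE 0.24, edgeR adjusted p = 7.46e-07) in preadipocyte and -1.41 (SE 0.24, adjusted p = 0.000166) in smooth muscle libraries. In intermediate libraries it was -0.51 (SE 0.23, edgeR adjusted p = 0.113), which passed in 5 of the 20 alternatives: with limma-voom (0.00595), in the fit to these populations alone (0.00017), with no filter on low counts (0.0173) and without preadipocyte replicate 1 (0.0173) or 3 (0.0283). Smooth muscle libraries were above preadipocyte libraries (log2 fold change 0.96, SE 0.23, edgeR adjusted p = 0.0021) and below intermediate libraries (-0.90, SE 0.23, adjusted p = 0.00857), the latter not with library size alone (-0.41, adjusted p = 0.16).

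Rian, a long non-coding RNA downstream of Meg3 that hosts small nucleolar RNAs and microRNAs, tracked Meg3. It was at 145, 141 and 152 CPM in progenitor, 129, 122 and 152 CPM in intermediate, 56.5, 29.5 and 36.0 CPM in preadipocyte and 52.8, 65.4 and 80.4 CPM in smooth muscle libraries. Progenitor and intermediate libraries overlapped, as did preadipocyte and smooth muscle libraries, with a gap between these pairs. Rian was lower than in progenitor libraries in preadipocyte (log2 fold change -1.84, SE 0.21, edgeR adjusted p = 2.11e-06) and smooth muscle libraries (-1.14, SE 0.20, adjusted p = 0.000298). Smooth muscle was below intermediate by -1.02 (SE 0.20, edgeR adjusted p = 0.00123), though not with library size alone (-0.53, adjusted p = 0.0512). Rian was higher in smooth muscle than in preadipocyte libraries (0.70, SE 0.20, edgeR adjusted p = 0.00715). That call was lost without progenitor replicate 2 (0.38, adjusted p = 0.133), without any of intermediate replicates 1, 2 and 3 (adjusted p of 0.134, 0.128 and 0.126), without smooth muscle replicate 3 (0.52, adjusted p = 0.05), with no filter on low counts (0.26, adjusted p = 0.277) and in the fit to these populations alone (0.48, adjusted p = 0.122).

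The balance within the cluster changed between populations. For each count on Dlk1, the libraries held 0.320, 0.333 and 0.286 counts on Meg3 in progenitor, 0.806, 0.877 and 0.786 in intermediate, 0.294, 0.213 and 0.238 in preadipocyte and 2.49, 2.53 and 2.48 in smooth muscle. Smooth muscle was the population in which counts on Meg3 exceeded those on Dlk1, and progenitor and preadipocyte libraries overlapped at the low end. A ratio of counts is taken within a library and does not depend on its scaling. Rian to Meg3 varied less, with mean ratios from 0.206 in progenitor to 0.307 in preadipocyte libraries.

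**Figure D4:**
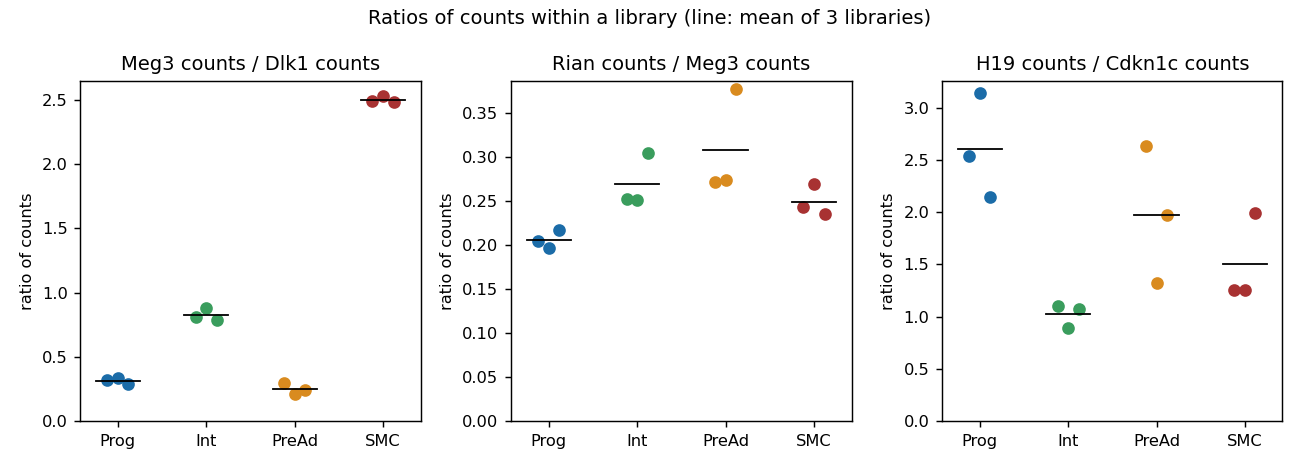
Ratios of counts of pairs of members within each library (y axis, starting at 0; points are libraries, lines are means of 3) for Meg3 to Dlk1, Rian to Meg3 and H19 to Cdkn1c in progenitor (Prog), intermediate (Int), preadipocyte (PreAd) and smooth muscle (SMC) populations. Meg3 to Dlk1 stands at 2.48 to 2.53 in smooth muscle and at most 0.877 in other libraries, while Rian to Meg3 stays between 0.196 and 0.377.

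Other imprinted genes of this cluster had fewer counts. Mirg, the non-coding RNA beyond Rian, was at 23.4 ± 1.59 CPM in progenitor, 14.8 ± 1.86 CPM in intermediate, 5.22 ± 1.87 CPM in preadipocyte and 7.43 ± 2.52 CPM in smooth muscle libraries (SD, n = 3). It was lower than in progenitor libraries in preadipocyte (log2 fold change -2.16, SE 0.26, edgeR adjusted p = 3.79e-06) and smooth muscle libraries (-1.66, SE 0.25, adjusted p = 7.38e-05). Rtl1, a gene derived from a retrotransposon and read from the paternal copy, had levels of 14.6 ± 1.27, 11.7 ± 0.901, 3.25 ± 1.02 and 3.94 ± 2.04 CPM in the same order of populations, and was lower in preadipocyte (-2.16, SE 0.30, edgeR adjusted p = 1.73e-05) and smooth muscle (-1.90, SE 0.30, adjusted p = 9.31e-05) than in progenitor libraries. Dio3, which encodes the deiodinase that inactivates thyroid hormone, had a pattern of its own. Its level was 6.96 ± 2.13 CPM in progenitor and 6.79 ± 0.579 CPM in preadipocyte libraries, against 0.995 ± 0.870 CPM in intermediate and 1.28 ± 0.894 CPM in smooth muscle libraries.

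The receptors and targets around Dlk1 were also read, although Dlk1 itself lacks the domain by which other ligands activate Notch. Of 13 other genes of the Notch pathway, 9 were higher in intermediate than in progenitor libraries, and the other 4 did not pass the test. In smooth muscle against progenitor libraries 10 were higher and 1 lower. Of all genes tested, 14.1% and 30.5% were higher in these comparisons. In preadipocyte against progenitor libraries 5 of the 13 were higher and 5 lower, and these 10 became 6 without progenitor replicate 3 or preadipocyte replicate 1. The background there was 25.1% higher and 25.9% lower. Notch3, a receptor of vascular mural cells, was at 29.3 ± 1.69 CPM in progenitor, 227 ± 33.4 CPM in intermediate, 11.7 ± 2.31 CPM in preadipocyte and 335 ± 60.0 CPM in smooth muscle libraries (SD, n = 3). The Notch target Heyl had levels of 37.7 ± 5.88, 360 ± 20.1, 13.9 ± 3.78 and 265 ± 42.5 CPM in the same order of populations. The ligand Jag1 was at 64.0 ± 15.6, 380 ± 57.4, 45.5 ± 16.8 and 356 ± 83.5 CPM. All 3 were higher than in progenitor libraries in intermediate and smooth muscle libraries, with edgeR adjusted p of at most 5.46e-06. Dlk1 was lower in both of those populations. It was also lower in preadipocyte libraries, where the means of Notch3, Heyl and Jag1 were lowest. A link between Dlk1 and these genes was not tested. Notch3 is also one of the pericyte markers, whose sum was 300 to 336 CPM in progenitor, 796 to 934 CPM in intermediate, 49.3 to 85.4 CPM in preadipocyte and 1239 to 1453 CPM in smooth muscle libraries, and its part was not tested.

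Mest, Plagl1 and Peg3 are read from the paternal copy. Mest encodes a protein of the alpha/beta hydrolase fold that is high in embryonic mesoderm and is known to follow the growth of adipose tissue. It was at 1563, 1484 and 1468 CPM in progenitor, 904.5, 868.5 and 890.1 CPM in intermediate, 303, 318.5 and 233 CPM in preadipocyte and 103, 120 and 144 CPM in smooth muscle libraries. The 4 populations stood in this order with no overlap. Against progenitor libraries the log2 fold change was -0.76 (SE 0.14, edgeR adjusted p = 0.00137) in intermediate, -2.40 (SE 0.15, adjusted p = 4.23e-09) in preadipocyte and -3.62 (SE 0.16, adjusted p = 1.52e-10) in smooth muscle libraries. Mest was also the member with the smallest p in the test among the 4 populations, ranking 215 of the 21285 genes.

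Plagl1, a zinc finger transcription factor that can arrest the cell cycle and acts on other imprinted genes, was at 1495, 1385 and 1743 CPM in progenitor, 1002, 1006 and 1024 CPM in intermediate, 330, 313 and 307 CPM in preadipocyte and 197, 230.5 and 290 CPM in smooth muscle libraries. The populations again took the order progenitor, intermediate, preadipocyte, smooth muscle without overlap. The log2 fold change against progenitor libraries was -0.61 (SE 0.14, edgeR adjusted p = 0.00586) in intermediate, -2.28 (SE 0.15, adjusted p = 5.88e-09) in preadipocyte and -2.69 (SE 0.15, adjusted p = 1.49e-09) in smooth muscle libraries. Smooth muscle was below preadipocyte by -0.41 (SE 0.14, edgeR adjusted p = 0.0201), which did not pass without smooth muscle replicate 1 (-0.29, adjusted p = 0.105) or 2 (-0.39, adjusted p = 0.0609).

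Peg3, a large zinc finger protein tied to growth and to cell survival, split the populations into a high and a low pair. Its level was 2776, 2346 and 2815 CPM in progenitor, 2594, 2684 and 2365 CPM in intermediate, 692, 632 and 479 CPM in preadipocyte and 445, 500 and 478.5 CPM in smooth muscle libraries. Progenitor and intermediate libraries overlapped, and so did preadipocyte and smooth muscle libraries. Intermediate and progenitor libraries were not told apart (log2 fold change -0.05, SE 0.14, edgeR adjusted p = 0.807), with a 95% interval of ± 0.27. Peg3 was lower than in progenitor libraries in preadipocyte (-2.14, SE 0.15, edgeR adjusted p = 1.24e-08) and smooth muscle libraries (-2.48, SE 0.15, adjusted p = 3.81e-09). Between the latter populations the difference was -0.34 (SE 0.14, edgeR adjusted p = 0.0473), and it missed the threshold when preadipocyte replicate 1 (0.128) or 2 (0.064) or smooth muscle replicate 1 (0.132), 2 (0.0615) or 3 (0.0647) was left out, with library size alone (0.0682) and with at least 5 CPM in 3 libraries (0.0614).

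Zim1 beside Peg3 and Klf14 beside Mest were, like those members, higher in progenitor and intermediate than in preadipocyte and smooth muscle libraries, while Copg2 beside Mest was not. Zim1, the zinc finger gene beside Peg3 that is read from the maternal copy, was at 279, 210 and 285 CPM in progenitor, 306, 254 and 276 CPM in intermediate, 54.7, 29.6 and 36.6 CPM in preadipocyte and 14.6, 19.8 and 18.7 CPM in smooth muscle libraries. As for Peg3, progenitor and intermediate libraries overlapped, but here smooth muscle libraries were below all preadipocyte libraries (log2 fold change -1.19, SE 0.20, edgeR adjusted p = 0.000125). Klf14, a transcription factor gene of the Mest cluster that is read from the maternal copy, was at 17.9, 23.3 and 21.8 CPM in progenitor, 15.6, 13.3 and 16.9 CPM in intermediate, 4.32, 3.99 and 2.17 CPM in preadipocyte and 0.932, 1.84 and 1.27 CPM in smooth muscle libraries. It was lower than in progenitor libraries in preadipocyte (-2.59, SE 0.26, edgeR adjusted p = 5.51e-07) and smooth muscle libraries (-3.94, SE 0.29, adjusted p = 2.66e-08). Copg2, which encodes a vesicle coat subunit and shares exon bases with Mest, stayed between 32.6 and 58.0 CPM in all 12 libraries. Usp29, which starts beside Peg3, was at 6.18 ± 1.25 CPM in progenitor and 3.00 ± 1.12 CPM in preadipocyte libraries (SD, n = 3).

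Grb10 and Ndn were the members with the narrowest ranges between population means, 3.22-fold and 2.69-fold. Grb10 encodes an adaptor that binds and damps the insulin and the insulin-like growth factor receptors. It was at 696, 572.5 and 697 CPM in progenitor, 725, 712 and 571 CPM in intermediate, 245, 235 and 143 CPM in preadipocyte and 354, 393 and 288 CPM in smooth muscle libraries. Progenitor and intermediate libraries covered the same range, and preadipocyte libraries were lowest without overlap. The log2 fold change against progenitor libraries was -1.66 (SE 0.19, edgeR adjusted p = 2.77e-06) in preadipocyte and -0.92 (SE 0.19, adjusted p = 0.000861) in smooth muscle libraries. Intermediate libraries did not differ from them by the test (0.03, SE 0.19, edgeR adjusted p = 0.92, 95% interval ± 0.37), with a sign that turned with library size alone (-0.014). Smooth muscle was above preadipocyte by 0.73 (SE 0.19, edgeR adjusted p = 0.0032), a call lost without progenitor replicate 2 (0.42, adjusted p = 0.0647), without intermediate replicate 1 (0.42, 0.0595), 2 (0.42, 0.0695) or 3 (0.42, 0.0541) and with no filter on low counts (0.29, 0.209).

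Leaving out a library could move this comparison, and others, as a whole. Without progenitor replicate 2 or any of the intermediate replicates the median over all genes of the smooth muscle against preadipocyte log2 fold change went from 0.352 to between 0.160 and 0.169. In the same fits the median of smooth muscle against progenitor went from 0.0906 to between -0.165 and -0.15. The share of higher genes among its calls went from 56.4% to between 40.3% and 42.7%. For smooth muscle against intermediate the median went from 0.0951 to between -0.0709 and -0.00954. For intermediate against progenitor it went from 0.0461 to between -0.0996 and -0.0533. Some calls that H19 and Ndn gained in smooth muscle against intermediate libraries came from these fits. So did sign changes of Grb10 and Zim1 in intermediate against progenitor libraries. The part of the scaling in these shifts was not tested.

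The receptors that Grb10 binds had other patterns. Igf1r, the receptor of insulin-like growth factors, was at 56.6 ± 0.550 CPM in progenitor, 91.5 ± 0.706 CPM in intermediate, 20.0 ± 5.87 CPM in preadipocyte and 131 ± 11.2 CPM in smooth muscle libraries (SD, n = 3). It was higher than in progenitor libraries in intermediate (log2 fold change 0.69, SE 0.16, edgeR adjusted p = 0.00565) and smooth muscle (1.21, SE 0.16, adjusted p = 1.87e-05) and lower in preadipocyte libraries (-1.49, SE 0.17, adjusted p = 1.72e-06). The intermediate call was lost without progenitor replicate 2 (edgeR adjusted p = 0.0683), without intermediate replicate 1 (0.0636), 2 (0.0654) or 3 (0.054) and with no filter on low counts (0.0661). The insulin receptor gene Insr lay between 36.2 and 63.1 CPM in the means of the 4 populations. Igf2r, the imprinted receptor that clears Igf2, was at 284 ± 27.1, 416 ± 24.1, 63.0 ± 16.6 and 271 ± 42.1 CPM, with the populations in that order. The growth factor Igf1 was at 858 ± 136, 255 ± 6.03, 269 ± 26.6 and 89.8 ± 14.9 CPM in that order. Of 19 genes of insulin-like growth factor and insulin signalling, 1 was higher and 12 were lower in preadipocyte than in progenitor libraries, with a median log2 fold change of -1.54. Over all genes 25.1% were higher and 25.9% lower there, against 30.5% and 23.6% in smooth muscle and 14.1% and 13.4% in intermediate libraries. In smooth muscle against progenitor libraries 4 of the 19 were higher and 5 lower, which became 14 calls with library size alone. In intermediate against progenitor libraries 4 were higher and 8 lower. The binding proteins were among both sets. Igfbp5 was lower in preadipocyte (-4.09, edgeR adjusted p = 2.61e-09) and higher in smooth muscle libraries (0.99, adjusted p = 0.00143), and Igfbp2 was higher in smooth muscle libraries by 6.19 (adjusted p = 1.73e-09).

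Ndn encodes necdin, a protein of the MAGE family that binds E2F and p53 and is known to restrain division and fat cell formation. It was at 472.5, 485 and 463 CPM in progenitor, 241, 202 and 228 CPM in intermediate, 254, 278 and 178.5 CPM in preadipocyte and 155, 177 and 195 CPM in smooth muscle libraries. Progenitor libraries were above all others by a wide gap, and the other populations ran into each other, since preadipocyte libraries overlapped with both. The log2 fold change against progenitor libraries was -1.08 (SE 0.15, edgeR adjusted p = 0.000118) in intermediate, -1.0 (SE 0.15, adjusted p = 5.09e-05) in preadipocyte and -1.43 (SE 0.16, adjusted p = 2.18e-06) in smooth muscle libraries. Preadipocyte and intermediate libraries were not told apart (0.08, SE 0.15, edgeR adjusted p = 0.655), nor were smooth muscle and intermediate libraries (-0.35, SE 0.15, adjusted p = 0.107). With library size alone the first of these passed (0.51, adjusted p = 0.00408) and the second turned (0.14, adjusted p = 0.379). The second passed in 7 of the 20 alternatives, such as limma-voom (-0.37, adjusted p = 0.00826) and the fit to these populations alone (-0.39, adjusted p = 0.00661). It also passed without progenitor replicate 2, intermediate replicate 2 or 3 or preadipocyte replicate 3, with edgeR adjusted p from 0.0131 to 0.0297. Smooth muscle was below preadipocyte by -0.43 (SE 0.15, edgeR adjusted p = 0.0219), and this call was lost without preadipocyte replicate 2 (-0.33, adjusted p = 0.0711) or smooth muscle replicate 1 (-0.35, adjusted p = 0.0959).

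Imprinted genes around Ndn followed it in part or had other patterns. Peg12 was, like Ndn, lower than in progenitor libraries in preadipocyte (log2 fold change -0.63, SE 0.20, edgeR adjusted p = 0.0149) and smooth muscle libraries (-1.22, SE 0.21, adjusted p = 0.000198). Unlike Ndn, Peg12 was higher in intermediate than in progenitor libraries (0.63, SE 0.20, edgeR adjusted p = 0.028). Magel2, another MAGE gene read from the paternal copy, was at 4.50, 6.91 and 5.16 CPM in progenitor, 4.90, 4.13 and 3.73 CPM in intermediate, 38.8, 42.2 and 23.8 CPM in preadipocyte and 1.36, 2.80 and 1.55 CPM in smooth muscle libraries. Preadipocyte libraries were above all others, and the log2 fold change against progenitor libraries was 2.66 (SE 0.27, edgeR adjusted p = 6.77e-07). Ndn was lower in preadipocyte than in progenitor libraries, as it was in the other populations. Snrpn, which encodes a small ribonucleoprotein, was at 6.99 ± 1.03 CPM in progenitor, 10.2 ± 0.719 CPM in intermediate, 10.7 ± 0.836 CPM in preadipocyte and 31.5 ± 6.28 CPM in smooth muscle libraries (SD, n = 3; smooth muscle against progenitor 2.17, SE 0.19, edgeR adjusted p = 1.52e-07). The Schwann and neuronal markers, whose sums are given above, were also highest in smooth muscle libraries, and their part in the level of Snrpn was not tested.

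**Figure D5:**
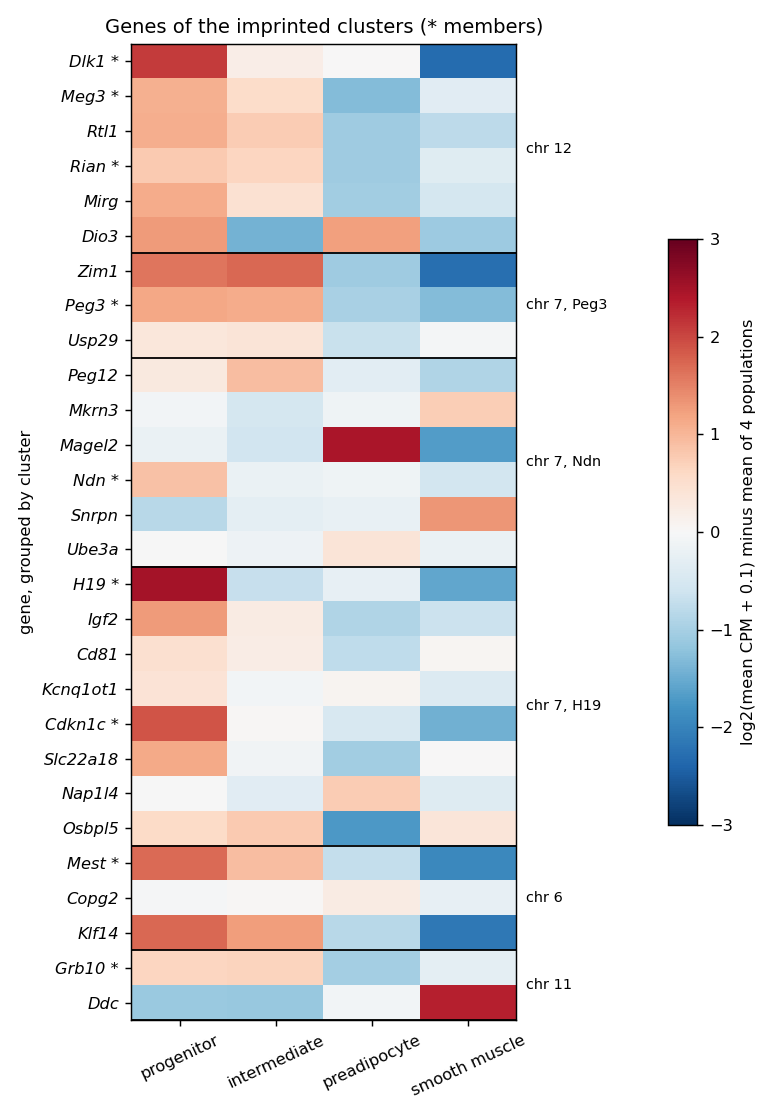
Mean level of imprinted genes of the members' clusters in the 4 populations (columns), as log2 of the mean CPM plus 0.1 minus the mean over the 4 populations (colour, red above and blue below), with rows grouped by cluster and members starred (Plagl1 is not drawn). Zim1 and Klf14 share the colours of Peg3 and Mest, while Magel2 is reddest in preadipocyte and Snrpn and Ddc in smooth muscle libraries.

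Other genes listed as imprinted were highest in each of the 4 populations. Of 61 tested, 19 (31.1%) were highest in progenitor, 18 (29.5%) in smooth muscle, 13 (21.3%) in preadipocyte and 11 (18.0%) in intermediate libraries. Over all genes these shares were 18.4%, 35.3%, 29.6% and 16.7%. In preadipocyte against progenitor libraries 15 were higher and 24 lower, with a median log2 fold change of -0.29, and in smooth muscle against progenitor libraries 15 were higher and 27 lower, with a median of -0.20. In intermediate against progenitor libraries 10 were higher and 14 lower. Over all genes the shares higher and lower were 25.1% and 25.9% in preadipocyte, 30.5% and 23.6% in smooth muscle and 14.1% and 13.4% in intermediate libraries. Of the genes listed as read from the paternal copy 4 were higher and 10 lower of 26 in preadipocyte libraries. Of those listed as read from the maternal copy 10 were higher and 13 lower of 33. Whether the listed genes are read from a single copy in these cells was not measured. Apart from the genes listed with the members' clusters, the 4 with the smallest p in the test among populations were Qpct, Th, Slc22a3 and Dcn, although Th lies 314609 bases from H19. Dcn, the small proteoglycan decorin, was at 13210 ± 1067 CPM in progenitor, 5175 ± 331 CPM in intermediate, 2005 ± 268 CPM in preadipocyte and 1480 ± 329 CPM in smooth muscle libraries (SD, n = 3). Qpct, the glutaminyl cyclase, was high in progenitor and intermediate libraries, at 282 ± 4.47, 257 ± 10.7, 20.4 ± 3.01 and 37.0 ± 4.44 CPM in the same order. Th, the rate-limiting enzyme of catecholamine synthesis and one of the neuronal markers, went the other way, at 0.328 ± 0.133, 1.74 ± 1.28, 13.8 ± 2.22 and 104 ± 18.6 CPM. The transporter Slc22a3 was at 0.714 ± 0.428, 2.56 ± 0.560, 6.10 ± 1.76 and 47.9 ± 3.54 CPM. Ddc, the next enzyme of catecholamine synthesis, lies beside Grb10 and was at 7.75 ± 0.509 CPM in progenitor and 86.2 ± 14.0 CPM in smooth muscle libraries (log2 fold change 3.47, SE 0.20, edgeR adjusted p = 2.05e-09). Among 54 tested genes within 500 kb of a member that are not listed as imprinted, 9 were higher and 15 lower in preadipocyte than in progenitor libraries, with a median of -0.26, and 15 were higher and 22 lower in smooth muscle than in progenitor libraries, with a median of -0.27.

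Listed factors of fat cell formation, a process that Dlk1 and Ndn are known to restrain, moved in both directions. The list was not split into factors that drive this process and factors that hold it back. Of 18 listed, 9 were higher and 5 lower in preadipocyte than in progenitor libraries. Over all genes 25.1% were higher and 25.9% lower there, and 30.5% and 23.6% in smooth muscle against progenitor libraries. Pparg, the main regulator of fat cell formation, was at 54.9 ± 3.32 CPM in progenitor and 296 ± 95.3 CPM in preadipocyte libraries (SD, n = 3; log2 fold change 2.43, SE 0.21, edgeR adjusted p = 1.45e-07). Cebpa, which acts beside it, was at 16.8 ± 1.98 and 81.8 ± 42.4 CPM in the same populations (2.28, SE 0.30, edgeR adjusted p = 1.02e-05). The early factor Cebpd was lower in preadipocyte libraries (-2.34, SE 0.17, edgeR adjusted p = 1.81e-08). In smooth muscle libraries, where Dlk1 was lowest, 3 of the 18 were higher and 12 lower than in progenitor libraries, and Pparg stood at 3.72 ± 1.13 CPM. In preadipocyte libraries Dlk1 was still at 538 ± 155 CPM, 5.03 times its smooth muscle mean.

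Of 14 tested genes listed for a part in setting, keeping or removing imprints, 7 were highest in preadipocyte libraries, as were 29.6% of all genes tested. These libraries also had the highest cell division sum, and the part of division was not tested. In all, 6 of the 14 were higher and 4 lower in preadipocyte than in progenitor libraries, with a background of 25.1% and 25.9%. Dnmt1, the maintenance DNA methyltransferase, was at 66.4 ± 3.76 CPM in progenitor and 186 ± 35.6 CPM in preadipocyte libraries (SD, n = 3; log2 fold change 1.49, SE 0.14, edgeR adjusted p = 3.49e-07). Its partner Uhrf1 was at 56.3 ± 5.84 and 282 ± 74.2 CPM (2.32, SE 0.17, edgeR adjusted p = 2.45e-08). Zfp57, which guards imprinted control regions in the embryo, was at 4.61 ± 0.182 CPM in progenitor, 13.1 ± 0.279 CPM in intermediate, 2.98 ± 1.60 CPM in preadipocyte and 12.7 ± 1.06 CPM in smooth muscle libraries.

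Levels of different genes can be compared per kilobase of exon, here over the merged exons of all annotated transcripts. This length was greatest for Meg3 (18089 bases) and Rian (18234 bases), where it may exceed a single transcript and so lower their values. On that scale Dlk1 was highest of the members in progenitor libraries, at 402 CPM per kb, followed by Mest at 381.5 and H19 at 340, and Meg3 (39.2) and Rian (8.0) were lowest. In smooth muscle libraries Ndn was highest at 47.6 CPM per kb, followed by Grb10 at 38.0 and Peg3 at 35.6, and Dlk1 had moved to 18.9. Rian was the lowest member in every library, and stood 14.5 to 664 times above the level per kilobase of olfactory and vomeronasal receptor genes, a gauge of background.

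Across the 12 libraries, which fall into 4 populations, the members formed groups by Pearson correlation of log2 CPM. The highest values were 0.98, between Meg3 and Rian, Peg3 and Plagl1, and Mest and Plagl1. H19 correlated with Cdkn1c and with Ndn at 0.95, and Dlk1 with Cdkn1c at 0.96. Within the chromosome 12 cluster Dlk1 correlated with Meg3 at 0.56 only, less than H19 with Dlk1 (0.91), and the lowest value was 0.38 between H19 and Grb10. These values rest mainly on the differences between populations and are given as a description. Over all genes with a mean log2 CPM of at least 4, the closest pattern to Mest was that of Olfml3 (0.999), to Peg3 that of Hic1 (0.997), to Grb10 that of Frmd6 (0.992), to Plagl1 that of Srpx2 (0.990), to Ndn that of Efnb1 (0.989) and to Dlk1 that of C1qtnf3 (0.988). For Cdkn1c it was Lbp (0.987), for Meg3 Dhrs3 (0.986), for Rian Nup210l (0.983) and for H19 Tle2 (0.968). Igf1, the insulin-like growth factor gene, was the third for Dlk1 (0.981).

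The members varied more between replicates in some populations than in others. The median coefficient of variation over the 10 members was 6.19% in progenitor and 8.37% in intermediate libraries, against 24.5% in preadipocyte and 20.3% in smooth muscle libraries. Preadipocyte replicate 1 held the highest of the 3 preadipocyte values for 8 members, and its 5 chondrocyte markers summed to 172 CPM against 6.95 and 5.07 CPM in replicates 2 and 3. Preadipocyte replicate 3, which held the most red blood cell and cell division RNA, held the lowest for 8. Smooth muscle replicate 3, which also had the highest mesothelial sum, held the highest smooth muscle value for 8 members, and replicate 1 the lowest for 9. The part of these other cells in the spread was not tested.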

How the data were processed

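The authors deposited whole-number counts per gene and library over 36512 genes, per the file headers, and no normalized table was used. The submitters' processing notes name STAR 2.5.2a, DESeq2 1.26.0 and mm10. Which tool, annotation and strand setting gave the counts is not given in the sources used here. Groups were taken from the sample titles. From the counts, genes were filtered with filterByExpr (21285 kept, with 99.33% to 99.89% of counts), scaled with TMM and tested two-sided (glmQLFit and glmQLFTest of edgeR 4.0.16, R 4.3.3). The 4 populations and their 12 libraries shared 1 model. Adjustment was by Benjamini-Hochberg over all genes tested, and calls are adjusted p-values under 0.05. SE is the size of the fold change over the root of F, and 95% intervals are normal intervals from it. The common biological coefficient of variation was 0.2.

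All 10 members are named in every comparison, with imprinted genes of their clusters, the 4 other imprinted genes with the smallest F test p, the gene most like each member by the correlation of log2 CPM (the rule allowed 3), and genes of fixed lists, 256 of whose 258 entries were matched. Members and lists were chosen with earlier results of these data known. Cell type markers are sums of CPM.

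Replicate pairs differed beyond sampling noise, with a chi-square per degree of freedom of 3.92 to 70.9, and their correlations of log2 CPM were 0.963 to 0.986. Libraries with the same replicate number did not deviate together in every pair (correlations of -0.163 to 0.207), so the numbers were not used as a block. Limits for a count of 0 (3 counts) cover counting error only. On counts simulated for preadipocyte against progenitor over 19583 genes, the test found 44 of 100 genes with a 2-fold change and 81 of 100 with a 4-fold change, and 16 of its 141 calls were false. For smooth muscle against progenitor over 19501 genes it found 36 and 68 of 100, with 4 of 108 calls false. Only these few genes were changed in the simulations, whereas 50.9% and 54.1% of all genes were called in the data. With few true changes the Benjamini-Hochberg cut is stricter, so these values do not give the power of the reported tests. Alternatives were other size factors, library size alone, DESeq2 1.42.0, limma-voom 3.58.1 with quality weights, fits to the populations compared, no filter on low counts or a filter of 5 CPM in 3 libraries, a replicate block and leaving out each library. Subtracting an even background was added after seeing the data.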

Additional observations from a re-analysis of the deposited data

How the results depend on the processing

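None of the counts of members or of other imprinted genes passing the test moved by more than 1.5 times under any alternative run: the counts of members were 6 to 7 for intermediate against progenitor, 6 to 8 for preadipocyte against intermediate, 6 to 10 for smooth muscle against intermediate and 7 to 10 for smooth muscle against preadipocyte libraries. Of 51 members' fold changes that passed the test, 43 kept their direction and their call in every alternative, and none of the 51 turned. Values that turned had all missed the threshold. With library size alone these were Grb10 in intermediate against progenitor (-0.014), Dlk1 in preadipocyte against intermediate (0.26), Ndn in smooth muscle against intermediate (0.14) and Copg2 in smooth muscle against progenitor libraries (0.24). With no filter on low counts they were Grb10 (-0.19), Dlk1 (0.011) and Zim1 in intermediate against progenitor libraries (-0.11). At 5 CPM in 3 libraries they were Peg3 (0.072) and Rian (0.0045) in intermediate against progenitor libraries, and Peg3 (0.022) in the fit to these populations alone. Leaving out each library in turn gave ranges of -0.23 to 0.062 for Grb10 in intermediate against progenitor, -0.40 to 0.019 for Dlk1 and -0.0355 to 0.29 for Ndn in preadipocyte against intermediate, and -0.17 to 0.17 for Zim1 in intermediate against progenitor libraries. The causes of these turns were not tested. Subtracting an even background took 0.351% to 4.60% off the members' smooth muscle levels.

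Replicate numbers were not shown to pair the libraries. With them as a block, counts of members called were 9 for smooth muscle against intermediate, where H19 was added (adjusted p = 0.0432 by edgeR), and 9 for smooth muscle against preadipocyte, where Peg3 was lost (adjusted p = 0.0635 by edgeR), and the other 5 counts did not change.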
